A study of Mus musculus with 22 samples.

Results

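The C/EBP transcription factor family was followed in RNA-sequencing libraries of sorted mouse bone marrow cells with and without *Arid1a*. The members were listed by family name, with no threshold on a measured value in the rule, as *Cebpa*, *Cebpb*, *Cebpd*, *Cebpe*, *Cebpg* and *Ddit3* (which encodes CHOP), and these are 6 of the 47311 genes measured. The 22 libraries came from 4 populations: CMP, GMP and MEP, with 3 WT and 3 KO libraries each, and LT-HSC with 2 and 2. KO mice were *Arid1a* f/f;Mx1-Cre+ and WT mice were sex-matched Mx1-Cre- littermates that also carried the floxed allele, in which loxP sites flank exon 9. All groups, WT included, were 8 to 14 weeks old when they began a course of 5 injections of 300 µg poly(I:C), on alternate days, and cells were sorted 4 weeks after it. Mx1-Cre answers to interferon, so deletion is not restricted to a single blood cell type. The number in a label was read as a mouse. CMP, GMP and MEP share their numbers (WT mice 300, 305 and 309, KO mice 301, 304 and 308), so a mouse number names 3 libraries. LT-HSC carry other numbers, read as other mice (WT S245 and S269, KO S244 and S270). They were prepared with the SMART-Seq ultra low input kit, so population, kit and animal cannot be told apart when LT-HSC are set beside the precursors.

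C/EBP proteins bind DNA as dimers through a basic leucine zipper, and the members can pair with each other. C/EBPα is required for the step from CMP to GMP, C/EBPε drives the late granule genes of neutrophils, and C/EBPβ sustains granulocyte production under cytokine stress, while C/EBPδ is induced by cytokines such as G-CSF. C/EBPγ lacks a strong activation domain. C/EBPγ and CHOP can act as partners that restrain the others, and CHOP is also an effector of the integrated stress response.

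*Cebpa* (ENSMUSG00000034957, chr7:35119293-35121928, plus strand) and *Cebpg* (ENSMUSG00000056216, chr7:35046422-35056573, minus strand) are neighbours that point away from each other, with 62719 bases between them. *Cebpb* (ENSMUSG00000056501) lies at chr2:167688915-167690418, *Cebpd* (ENSMUSG00000071637) at chr16:15887286-15891031, *Cebpe* (ENSMUSG00000052435) at chr14:54710360-54712174 and *Ddit3* (ENSMUSG00000025408) at chr10:127290774-127296288, all on GRCm38. Strand was not stated for the libraries, and exons of *Cebpb*, *Cebpd* and *Ddit3* share 312, 562 and 68 bases with the opposite-strand genes *Tmem189*, *Spidr* and *Mars*, so reads from these stretches cannot be told apart by gene. The 250 bases before the RefSeq start site were at hand for 4 members (GRCm38.p6), and they are shown so that the members' start regions can be compared by eye. Capitals mark, on either strand, the TATA box sequence TATAAA, the CCAAT box and the GC box sequence GGGCGG. The *Cebpa* window is chr7:35119043-35119292 (plus strand), that of *Cebpb* is chr2:167688665-167688914 (plus strand), that of *Cebpg* is chr7:35056567-35056816 (minus strand) and that of *Ddit3* is chr10:127290543-127290792 (plus strand).
Cebpa: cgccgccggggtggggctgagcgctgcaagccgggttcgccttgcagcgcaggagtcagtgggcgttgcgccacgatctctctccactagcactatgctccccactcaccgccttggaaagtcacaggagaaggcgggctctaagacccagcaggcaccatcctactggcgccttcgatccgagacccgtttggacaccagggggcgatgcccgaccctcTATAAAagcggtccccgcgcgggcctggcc
Cebpb: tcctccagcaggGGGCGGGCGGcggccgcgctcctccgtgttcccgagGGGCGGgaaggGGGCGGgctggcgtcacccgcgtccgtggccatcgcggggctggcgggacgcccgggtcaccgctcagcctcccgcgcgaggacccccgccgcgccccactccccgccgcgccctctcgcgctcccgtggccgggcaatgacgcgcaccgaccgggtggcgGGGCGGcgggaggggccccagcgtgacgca
Cebpg: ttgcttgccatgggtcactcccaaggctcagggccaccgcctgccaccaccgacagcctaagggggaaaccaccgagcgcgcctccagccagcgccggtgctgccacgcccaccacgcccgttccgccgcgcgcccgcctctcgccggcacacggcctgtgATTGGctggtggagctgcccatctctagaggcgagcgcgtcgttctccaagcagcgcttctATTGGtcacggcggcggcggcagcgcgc
Ddit3: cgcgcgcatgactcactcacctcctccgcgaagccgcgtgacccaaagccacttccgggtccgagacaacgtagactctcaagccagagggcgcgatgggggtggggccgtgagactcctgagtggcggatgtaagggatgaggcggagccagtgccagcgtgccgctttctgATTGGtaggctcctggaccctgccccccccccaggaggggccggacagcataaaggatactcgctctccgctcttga
The *Cebpa* window held TATAAA, at bases -30 to -25 from the start, and no other member window did, while 12.4% of the 32851 promoters in the table hold it within the same length. The *Cebpb* window held 5 copies of GGGCGG, of which the 2 farthest from the start overlap each other, against 32.7% of promoters with at least 1 copy. *Cebpg* held 2 copies of CCAAT and *Ddit3* held 1, against 33.8% of promoters. The C/EBP-type sequence TTGCNNAA (9.56% of promoters), the C/EBP-ATF composite TTGCATCA (0.791%) and the CRE TGACGTCA (1.55%) were in 0 of the 4 windows on either strand. GC content ran from 64.8% in *Ddit3* to 81.6% in *Cebpb*, above the median promoter at 52.4%.

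Between 40804031 and 65930737 estimated counts fell on genes per library. *Arid1a* itself had 80.7 ± 3.30 TPM (a level scaled for transcript length and library size, SD, n = 3) in WT CMP and 74.4 ± 5.27 in KO CMP. GMP had 65.5 ± 11.2 in WT and 44.8 ± 1.83 in KO, while MEP had 52.7 ± 1.09 in WT and 48.2 ± 3.37 in KO. In LT-HSC the values were 26.8 ± 4.37 and 10.8 ± 0.171 (n = 2). A summed level cannot show the loss of a single exon, so these values check the labels only in part. In LT-HSC of WT mouse S245, 27191 genes reached 10 counts, and in the other 3 LT-HSC libraries 18504 to 22408 did. With a threshold of 0.1 on the false discovery rate (FDR), KO CMP had 2200 lower and 1830 higher genes and KO GMP 2676 lower and 2874 higher genes. On the TPM scale the same split leaned otherwise, with 28.7% of calls lower in CMP (54.6% after TMM) and 72.6% lower in GMP (48.2% after TMM). The median log2 difference of all genes on the log2(TPM + 1) scale was 0.09 in CMP and -0.12 in GMP, against -0.0027 and -0.0056 after TMM. Fold changes below come from TMM-scaled counts and levels from TPM, which divides by length.

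In WT cells the members fell into those that peak in GMP and those that do not. *Cebpa* had 69.4, 70.7 and 69.8 TPM in the 3 WT CMP libraries, 169, 170 and 158 in WT GMP and 1.73, 1.41 and 1.19 in WT MEP. The spread within a population was far smaller than the steps between them, and in WT LT-HSC the gene stood at 0.978 and 0.800 TPM, the lowest of the 6 members there. When all 18 CMP, GMP and MEP libraries were modelled together, blocking on mouse, the log2 difference of *Cebpa* was 1.40 (SE 0.14, adjusted p = 2.50e-06) in GMP over CMP and -5.39 (SE 0.18, adjusted p = 4.53e-11) in MEP against CMP. In bulk samples such as these, fewer cells that express a gene and less RNA per cell cannot be told apart.

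*Cebpe* had the steepest step of the family. Its WT levels were 3.93, 1.84 and 3.40 TPM in CMP and 134, 128 and 120 TPM in GMP, and within a mouse the GMP level was 34.2, 70.0 and 35.4 times the CMP level. In WT MEP it stood at 0.620, 0.113 and 0.228 TPM, from 29, 4 and 8 estimated counts, so no precise level can be set there. The log2 difference of GMP over CMP was 5.58 (SE 0.19, adjusted p = 1.34e-10).

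*Cebpd* and *Cebpb* also rose from CMP to GMP. *Cebpd* went from 9.72, 12.4 and 11.7 TPM to 44.3, 46.6 and 39.7 TPM (log2 difference 2.11, SE 0.13, adjusted p = 2.24e-08), and it was at 3.82, 4.91 and 2.44 TPM in MEP. *Cebpb* went from 5.58, 11.6 and 6.93 TPM to 30.6, 32.3 and 25.3 TPM (log2 difference 2.06, SE 0.18, adjusted p = 6.52e-07), with 3.07, 2.81 and 1.73 TPM in MEP. The *Cebpb* level of WT CMP mouse 305 stood well above those of the other WT CMP libraries. Unlike *Cebpa*, both genes were well above 1 TPM in WT LT-HSC, where *Cebpb* had 27.5 and 39.9 TPM, overlapping its WT GMP range, and *Cebpd* had 13.1 and 14.6.

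*Cebpg* and *Ddit3*, the genes of the partners that can restrain the others, were not highest in GMP. With all transcripts summed, *Cebpg* was the flattest member, at 28.0, 26.3 and 26.2 TPM in WT CMP and 21.8, 21.9 and 20.7 in WT GMP. It had 20.4, 20.4 and 18.2 TPM in WT MEP and 25.4 and 21.7 in WT LT-HSC. In WT LT-HSC a transcript with a retained intron supplied 11.4 TPM in each library, and the longest coding transcript 7.61 and 8.35 TPM. In WT CMP *Cebpg* had 2.22, 1.63 and 1.70 TPM of the former and 23.9, 24.3 and 22.6 TPM of the latter. Its log2 difference of GMP over CMP was -0.17 (SE 0.05, adjusted p = 0.0175), which missed the threshold without mouse 305 (adjusted p = 0.147) or mouse 309 (0.101), and like the members above it was lower in MEP than in CMP (-0.29, SE 0.05, adjusted p = 0.000204). *Ddit3* was highest in WT LT-HSC, at 53.5 and 54.4 TPM, then in MEP, at 39.7, 46.1 and 44.0, then in CMP, at 28.6, 27.7 and 26.4, and lowest in GMP, at 20.7, 21.8 and 20.2. None of these 4 WT ranges of *Ddit3* overlapped another, although the order of LT-HSC and MEP was not kept on TMM-scaled counts. Its log2 difference was 0.96 (SE 0.07, adjusted p = 4.68e-08) in MEP over CMP and -0.24 (SE 0.07, adjusted p = 0.0204) in GMP over CMP, and the latter missed the threshold without mouse 300 (0.102) or mouse 305 (0.108). All 6 members passed the threshold in GMP over CMP, where 45.2% of all tested genes did, all 6 in MEP against CMP (70.6% of genes) and all 6 in GMP against MEP (70.7% of genes), so these counts stand on a high background. *Cebpg* in GMP against MEP was the smallest of these differences at 0.12 (SE 0.05, adjusted p = 0.0574) and fell short of the threshold without mouse 300 (0.299) or mouse 309 (0.222).

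**Figure D1:**
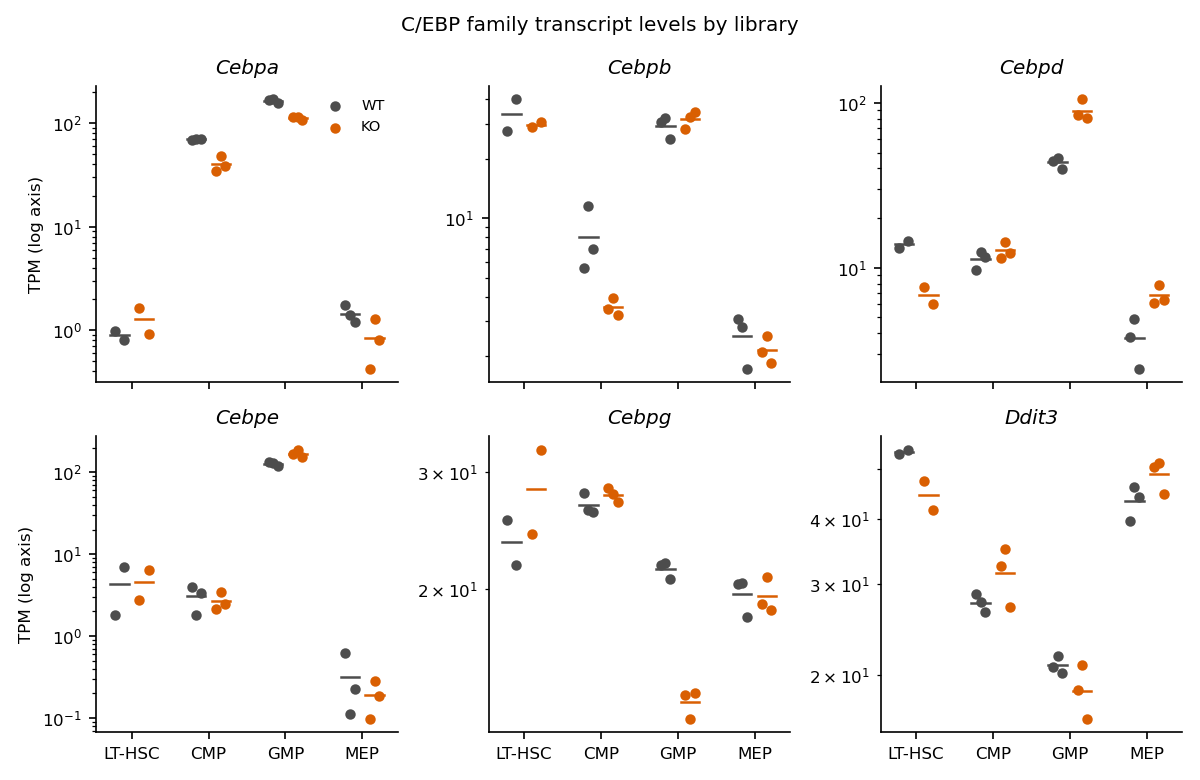
TPM of each C/EBP member (log axes, each panel with its own range) in LT-HSC, CMP, GMP and MEP, with 1 point per library, WT in grey, KO in orange and bars at the means. *Cebpa* runs from about 1 TPM in LT-HSC and MEP to over 100 in GMP, and *Cebpg* in KO GMP lies between 12.7 and 13.96 TPM, below every other library.

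The make-up of the family total changed from population to population. In WT CMP *Cebpa* supplied 47.7% ± 0.688 (SD, n = 3) of the summed TPM of the 6 genes, and the total was 144 to 151 TPM. In WT GMP the total was 384 to 421 TPM, of which *Cebpa* supplied 40.6% ± 0.470 and *Cebpe* 31.2% ± 0.718. In WT MEP *Ddit3* supplied 61.03% ± 3.84 of 67.8 to 75.8 TPM and *Cebpg* 27.7% ± 1.45, so *Ddit3* and *Cebpg* together made up most of the family total there.

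**Figure D2:**
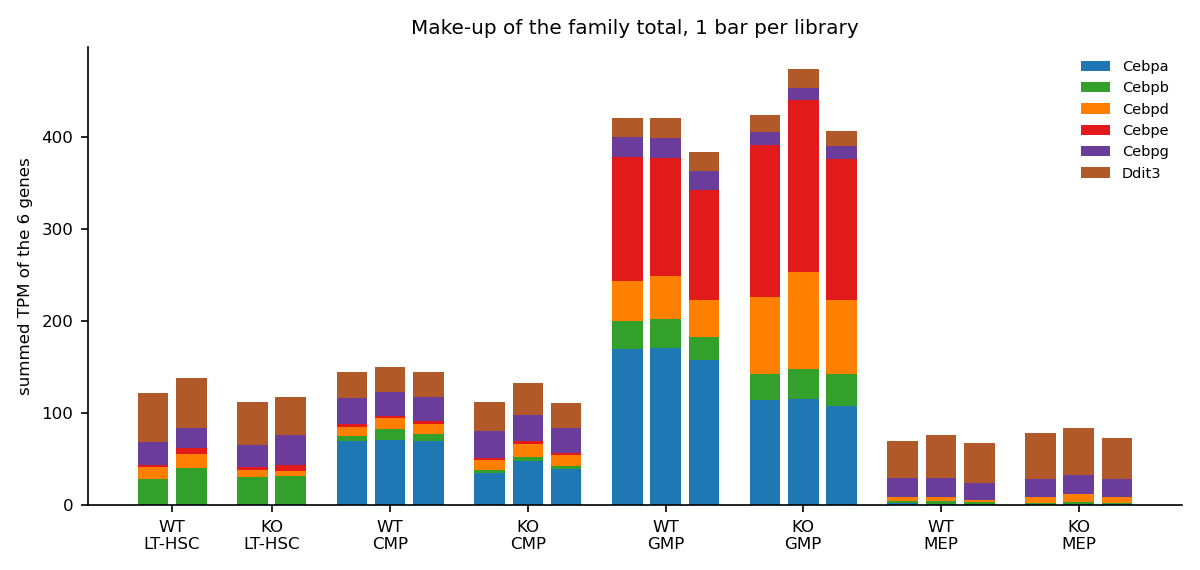
Summed TPM of the 6 C/EBP genes, with 1 stacked bar per library grouped by genotype and population and a color for each gene. The 3 KO CMP bars (111 to 133 TPM) are shorter than the 3 WT CMP bars (144 to 151), mainly in the *Cebpa* segment, and *Cebpe* is the largest segment in KO GMP but not in WT GMP.

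KO cells were compared with WT cells of the same sorted population, each population in its own model. The paper told CMP, GMP and MEP apart by surface CD34 and FcγRII/III. It reports that CMP and GMP of KO mice carried less surface CD34 than those of WT mice. Whether a gate held the same cells in both genotypes was not tested. *Cebpa*, the C/EBP gene of the CMP to GMP step, fell in KO CMP and KO GMP. In KO CMP it had 34.6, 48.3 and 39.0 TPM for mice 301, 304 and 308, all below the lowest WT library at 69.4, and the log2 fold change was -0.88 (SE 0.11, adjusted p = 0.00103, edgeR's quasi-likelihood test). In KO GMP it had 114, 115 and 108 TPM against at least 158 in WT, and the log2 fold change was -0.40 (SE 0.06, adjusted p = 0.00107). When all 18 precursor libraries shared 1 estimate of the spread, the GMP difference was -0.39 and missed the threshold (adjusted p = 0.123). In MEP, where the gene is scarce, KO levels were 0.424, 1.28 and 0.800 TPM and overlapped WT, and the log2 fold change of -0.79 (SE 0.38, adjusted p = 0.187) missed the threshold. Without KO mouse 304 the MEP difference was -1.28 (adjusted p = 0.0423).

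*Cebpb* fell in KO CMP and not in KO GMP. KO CMP had 3.44, 3.93 and 3.23 TPM, below all WT CMP libraries (log2 fold change -1.28, SE 0.26, adjusted p = 0.0105), and without WT mouse 305, the highest library, the fold change was -0.92 (adjusted p = 0.0142). The opposite-strand neighbour *Tmem189* had 29.6 ± 1.66 TPM in WT CMP and 29.8 ± 3.19 in KO CMP (SD, n = 3). In GMP the KO libraries, at 28.4, 32.7 and 34.3 TPM, overlapped the WT libraries. The fitted log2 fold change there was 0.28 (SE 0.11, adjusted p = 0.0969), barely inside the threshold, and it fell outside when WT mouse 300 (adjusted p = 0.188), WT mouse 309 (0.360), KO mouse 304 (0.226) or KO mouse 308 (0.269) was left out. *Tmem189* was itself higher in KO GMP (log2 fold change 0.40, adjusted p = 0.00102), and its part in the *Cebpb* value was not tested. In MEP the *Cebpb* log2 fold change was -0.26 (SE 0.24, adjusted p = 0.506).

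*Cebpd* rose in KO GMP and KO MEP. In KO GMP it reached 84.1, 105 and 80.6 TPM, with every KO library above every WT library, a 2.07-fold difference in mean TPM and a log2 fold change of 1.21 (SE 0.12, adjusted p = 0.000109). In KO MEP it had 6.11, 7.91 and 6.36 TPM, also above every WT library, with a log2 fold change of 0.84 (SE 0.25, adjusted p = 0.0429). That MEP call was lost without WT mouse 300 (adjusted p = 0.103) or KO mouse 304 (0.135). In CMP the KO libraries, at 11.5, 14.4 and 12.3 TPM, overlapped WT (log2 fold change 0.08, SE 0.15, adjusted p = 0.810). *Spidr*, on the opposite strand, differed by 0.05 on the log2 scale in GMP (adjusted p = 0.635) and by 0.04 in MEP (adjusted p = 0.676).

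*Cebpe*, the late granulocyte member, rose in KO GMP. The KO GMP libraries had 166, 188 and 154 TPM, all above the highest WT library at 134, with a log2 fold change of 0.56 (SE 0.09, adjusted p = 0.00152). As *Cebpa* fell in the same libraries, the order of the family turned over. *Cebpe* TPM was 0.794, 0.754 and 0.762 times that of *Cebpa* in WT GMP and 1.45, 1.63 and 1.42 times in KO GMP. *Cebpe* thus ranked first in each KO GMP library and *Cebpa* in each WT GMP library. In CMP *Cebpe* had 2.13, 3.44 and 2.49 TPM in KO and overlapped WT (log2 fold change -0.27, SE 0.31, adjusted p = 0.642), and in MEP its counts were too low to pass the filter.

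*Cebpg* fell in GMP only among the tests made. Its KO GMP levels were 13.8, 12.7 and 13.96 TPM against 20.7 to 21.9 in WT, without overlap, and the log2 fold change was -0.55 (SE 0.06, adjusted p = 0.000232). In KO CMP, at 28.4, 27.8 and 27.0 TPM, and in KO MEP, at 19.0, 20.9 and 18.6, it overlapped WT, with log2 fold changes of -0.03 (SE 0.05, adjusted p = 0.792) and -0.02 (SE 0.07, adjusted p = 0.905). *Ddit3* was not called in any population. Its log2 fold changes were 0.09 (SE 0.11, adjusted p = 0.651) in CMP, -0.04 (SE 0.12, adjusted p = 0.853) in GMP and 0.15 (SE 0.08, adjusted p = 0.205) in MEP, and KO and WT libraries overlapped in TPM in all 3.

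**Figure D3:**
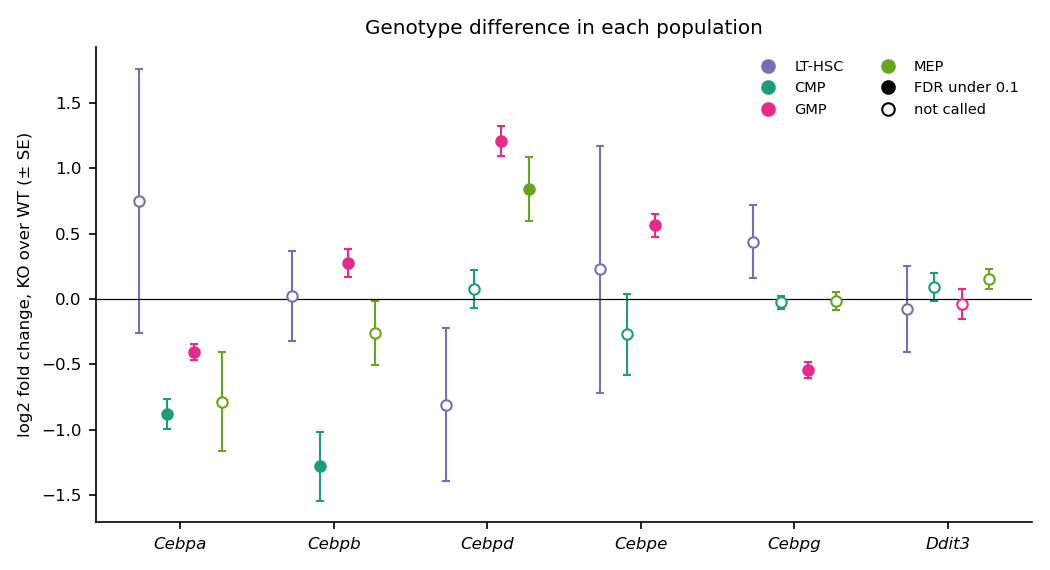
Log2 fold change of KO over WT for each C/EBP member in each population, with bars of 1 SE and filled points at an FDR under 0.1. GMP has filled points on both sides of 0, from -0.55 for *Cebpg* to 1.21 for *Cebpd*, CMP only below 0, and the LT-HSC bars are the widest.

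In all, 2 of 6 members were lower and 0 higher in KO CMP, where 12.8% of tested genes were lower and 10.6% higher (23.4% in either direction). In KO GMP 2 were lower and 3 higher, against 16.3% and 17.5% of genes, and 33.9% in either direction. In KO MEP 1 of the 5 members tested was higher, against 14% of genes (15.4% were lower, 29.4% in either direction). On TMM-scaled counts, WT and KO libraries did not overlap for 2 members in CMP, 4 in GMP and 2 in MEP (*Cebpd* and *Ddit3*, of which *Ddit3* overlapped in TPM), and for 34%, 42.4% and 38.8% of all tested genes. With so few members these counts describe the family and are no test of it. The same WT libraries of a population stand behind all of its members' fold changes.

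In LT-HSC 0 of 6 members passed the threshold (0.0792% of genes did), with 0 at an unadjusted p under 0.05 (5.19% of genes) and 0 by DESeq2 or limma, and 2 mice per group leave an exact permutation test at p = 0.3333 at best. In simulated data this fit recovered 0.5% of genes changed 2-fold, so 0 calls here do not show that the members are unchanged. *Cebpd* had 7.68 and 5.99 TPM in KO, both below the WT libraries (log2 fold change -0.81, SE 0.59, adjusted p = 0.876, and -0.999 without WT mouse S245). *Ddit3*, at 47.3 and 41.6 TPM in KO, was also below both WT libraries in TPM, but the count-based difference was -0.08 (SE 0.33, adjusted p = 0.961). *Cebpa*, at 1.63 and 0.922 TPM, *Cebpb*, at 28.8 and 30.6, and *Cebpg*, at 24.3 and 32.4, overlapped WT in TPM. *Cebpe* varied more within a genotype than between genotypes, with 1.80 and 6.97 TPM in WT and 2.75 and 6.40 in KO. The *Cebpb* difference changed from 0.02 to -0.32 and that of *Cebpe* from 0.23 to -0.49 when WT mouse S245 was left out. On TMM-scaled counts WT and KO libraries stood apart in LT-HSC for 3 members (*Cebpd* lower, *Cebpa* and *Cebpg* higher in KO) and for 36.3% of all tested genes, and the median log2 fold change over all of them was -0.16 on the same scale.

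Whether the genotype difference itself varied among populations was tested as an interaction, in the joint model of CMP, GMP and MEP that blocks on mouse. Between GMP and CMP, 4 of 6 members differed, against 21% of genes. The *Cebpb* effect was 1.52 higher in GMP on the log2 scale (SE 0.25, adjusted p = 0.00107), that of *Cebpd* 1.13 higher (SE 0.18, adjusted p = 0.000699) and that of *Cebpe* 0.81 higher (SE 0.27, adjusted p = 0.0591), while that of *Cebpg* was -0.52 (SE 0.07, adjusted p = 0.000315). Among the fits that left out 1 mouse, the *Cebpe* interaction passed only without mouse 305 and was lost when mouse 300 (adjusted p = 0.121), 301 (0.214), 304 (0.106), 308 (0.132) or 309 (0.228) was left out. *Cebpa* fell in both populations, and the interaction of 0.51 (SE 0.19, adjusted p = 0.103) just missed the threshold, although without mouse 304 it passed (adjusted p = 0.0455). Each of the GMP to CMP steps could also be read within a mouse. *Cebpd* rose 4.56, 3.75 and 3.39-fold from CMP to GMP in WT mice and 7.35, 7.30 and 6.54-fold in KO mice. *Cebpb* rose 5.47, 2.79 and 3.64-fold in WT and 8.25, 8.31 and 10.6-fold in KO. *Cebpg* was 0.778, 0.833 and 0.792 times its CMP level in WT GMP and 0.487, 0.458 and 0.517 times in KO GMP. For these 3 genes the WT and KO mice did not overlap, and the share of all genes whose mice stood apart in this way was not counted. *Ddit3*, which the interaction test did not call, also stood apart, at 0.725, 0.786 and 0.762 times its CMP level in WT and 0.575, 0.595 and 0.608 times in KO. Its interaction on TMM-scaled counts was -0.12 (SE 0.10, adjusted p = 0.503). The within-mouse folds are on TPM, and on log2(TPM + 1) the median KO difference of all genes was 0.09 in CMP and -0.12 in GMP. *Cebpe*, which was called, overlapped, with folds of 34.2, 70.0 and 35.4 in WT and 77.6, 54.6 and 61.6 in KO, and so did *Cebpa*, with 2.44, 2.41 and 2.26 in WT and 3.30, 2.39 and 2.77 in KO.

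Between MEP and CMP 2 of 6 members differed, against 13% of genes. The effect in MEP was 0.98 higher for *Cebpb* (SE 0.29, adjusted p = 0.0481) and 0.77 higher for *Cebpd* (SE 0.20, adjusted p = 0.0260). The *Cebpb* call was lost without mouse 301 (adjusted p = 0.155), 304 (0.158), 305 (0.154), 308 (0.113) or 309 (0.203), and that of *Cebpd* without mouse 301 (0.105). Between MEP and GMP, *Cebpg* was the 1 member that differed, with an effect 0.52 higher in MEP (SE 0.07, adjusted p = 0.000184), against 26.8% of genes.

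Genes of neutrophil granules are classical targets of C/EBPα and C/EBPε, and their direction also depended on the population. The granule gene lists, like the other gene lists below, were chosen with earlier results of these data known. Their counts therefore describe the lists and are no test of them. Primary granules are made early, at the promyelocyte stage. Of the 12 genes listed with them, *Ms4a3*, *Igsf6* and *Serpinb1a* do not encode granule contents. In KO CMP 8 of the 12 fell and 0 rose (12.8% and 10.6% of all genes). Their median log2 fold change was -0.64 against -0.0027 over all tested genes. *Ctsg* (cathepsin G) fell from 623 ± 41.1 to 142 ± 26.5 TPM (SD, n = 3) and *Mpo* (myeloperoxidase) from 2757 ± 278 to 1135 ± 300. In KO GMP 10 of the 12 rose and 0 fell (17.5% and 16.3% of all genes), with a median of 0.72, among them *Ms4a3* (log2 fold change 1.09) and *Serpinb1a* (1.06), an inhibitor of granule proteases. *Elane* (neutrophil elastase) went both ways, at -0.84 in CMP (adjusted p = 0.0483) and 0.75 in GMP (adjusted p = 0.00168). In MEP 5 fell and 0 rose (15.4% and 14% of all genes). The genotype effect was higher in GMP than in CMP for 11 of the 12 by the interaction test, in which 21% of all genes differed in either direction.

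The 24 secondary granule and late neutrophil genes, among them *Cebpe* itself, did the same on a wider scale. Of the 22 tested in CMP 10 fell and 2 rose (12.8% and 10.6% of all genes), with a median of -1.21. Of the 23 tested in GMP 4 fell and 15 rose (16.3% and 17.5% of all genes), with a median of 1.17. *Fcnb* (ficolin B) went from 16.7 ± 3.55 to 518 ± 194 TPM in GMP (log2 fold change 5.15, SE 0.28, adjusted p = 5.74e-06) and *Itgam* (CD11b) from 17.0 ± 2.61 to 117 ± 21.1 (log2 fold change 2.96). The late genes were split in GMP, since *Lcn2* rose by 2.66 on the log2 scale but *Ltf* (lactoferrin) was lower in KO GMP (log2 fold change -2.11, adjusted p = 0.0313), and *Ltf* was also lower in CMP (-2.44) and MEP (-2.73). *Padi4* (a histone-modifying enzyme of neutrophils) had the largest fall among those named from this list in CMP, from 17.4 ± 5.69 to 1.89 ± 0.426 TPM, and it fell in GMP as well (-2.58, adjusted p = 0.000126). For 18 of the 24 the effect was higher in GMP than in CMP by the interaction test, and for 0 lower. Of all genes 21% differed in that test, in either direction.

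**Figure D4:**
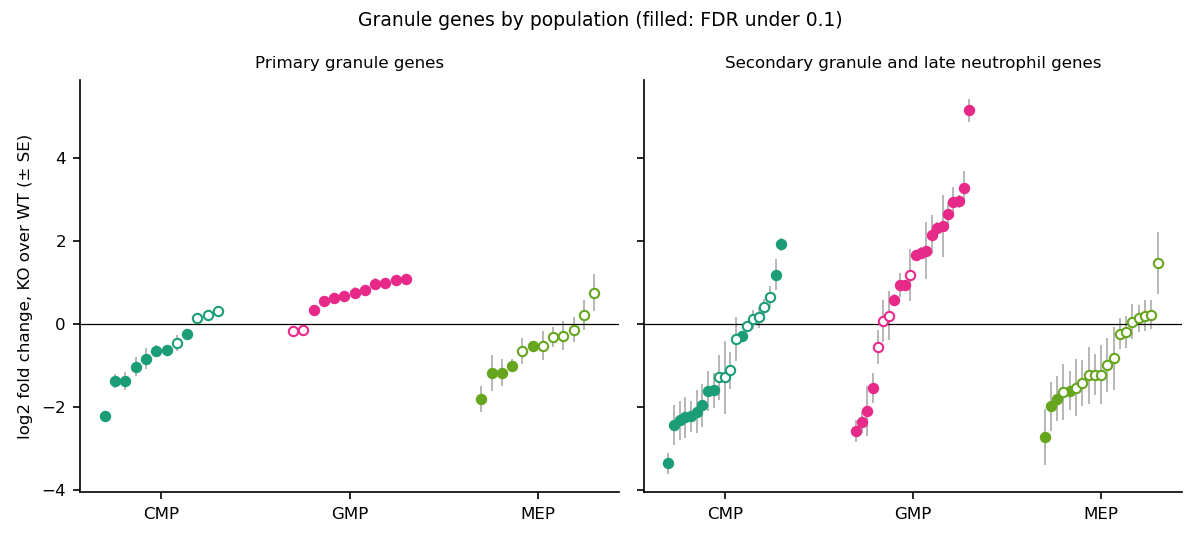
Log2 fold change of KO over WT (bars of 1 SE) for primary granule genes and for secondary granule and late neutrophil genes (without *Cebpe*) in CMP, GMP and MEP, each gene a point, ordered by value and filled at an FDR under 0.1. Most filled points lie below 0 in CMP and MEP and above 0 in GMP, where *Fcnb* is highest at 5.15.

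Markers of other cell types moved with some of these values. In GMP the summed TPM of 10 mature neutrophil markers was 160 to 363 in WT and 316 to 1215 in KO, ranges that overlap. Of the 9 tested 4 rose and 2 fell (17.5% and 16.3% of all genes), with *S100a8* at a mean of 109 TPM in WT and 428 in KO and *Retnlg* at 15.7 and 2.68. *Ly6g*, a defining marker, stayed under 1 TPM in every GMP library. The sum of 5 eosinophil markers was 4206 to 9625 TPM in WT GMP and 1181 to 2344 in KO GMP, that of 7 basophil and mast cell markers 781 to 1246 and 127 to 176, and that of 9 monocyte and macrophage markers 172 to 294 and 124 to 147. All 5 eosinophil markers and all 6 basophil and mast cell markers tested were lower in KO GMP, where 16.3% of all genes were. The monocyte list went both ways, with 3 lower and 2 higher of 9 (16.3% and 17.5% of all genes). *F13a1* went from 118 to 21.2 TPM but *Adgre1* from 4.14 to 38.3 and *Cx3cr1* from 7.09 to 23.4. In CMP the mature neutrophil markers summed to 71.0 to 317 TPM in WT and 38.7 to 74.7 in KO, with *Ly6g* under 0.5 TPM in both. Of the 9 tested there, 6 were lower and 0 higher in KO (12.8% and 10.6% of all genes). The 10 MEP and erythroid markers summed to 1296 to 1435 TPM in WT CMP and 1883 to 2246 in KO CMP. Of these 10, 9 were higher and 0 lower (10.6% and 12.8% of all genes), with a median log2 fold change of 0.98. The monocyte and macrophage markers summed to 162 to 335 TPM in WT CMP and 94.2 to 133 in KO CMP. Of the 9 genes 2 were lower and 1 higher (12.8% and 10.6% of all genes), with a median log2 fold change of 0.41. *F13a1* went from 116 to 5.43 TPM and *Adgre1* from 0.899 to 2.76. Megakaryocyte markers (6 genes) summed to 768 to 1127 TPM in WT CMP and 595 to 621 in KO CMP, and to 107 to 226 and 72.3 to 92.4 in GMP. In KO CMP 4 of the 6 megakaryocyte markers were lower and 1 higher (12.8% and 10.6% of all genes). In CMP the basophil and mast cell sum was 107 to 274 TPM in WT and 76.8 to 84.001 in KO. Of the 6 basophil and mast cell markers tested there, 4 were lower and 0 higher. The sum of 10 LT-HSC markers was 118 to 156 TPM in WT CMP and 176 to 190 in KO CMP. In GMP the LT-HSC marker sum was 28.6 to 33.5 TPM in WT and 20.4 to 21.4 in KO, and that of 6 dendritic cell markers was 185 to 281 and 120 to 153. For 7 B and plasma cell markers it was 38.7 to 54.1 TPM in WT CMP and 27.2 to 28.6 in KO CMP, and 41.5 to 53.6 and 25.7 to 37.5 in GMP. For 6 T and NK cell markers it was 168 to 242 TPM in WT CMP and 133 to 159 in KO CMP, and 646 to 860 and 947 to 1107 in GMP, nearly all of it *Nkg7*, which is also a primary granule gene here. The 8 CMP and GMP markers summed to 4056 to 4800 TPM in WT CMP and 2230 to 3124 in KO CMP, and to 28167 to 33010 and 37373 to 42134 in GMP, and 4 of the 8 are also among the primary granule genes. In MEP the megakaryocyte markers summed to 25.7 to 48.2 TPM in WT and 72.3 to 97.5 in KO. The erythroid sum was 7025 to 7925 in WT MEP and 5479 to 5795 in KO MEP. By the test, however, 5 of its 10 genes rose and 1 fell (14% and 15.4% of all genes). In LT-HSC libraries the 10 LT-HSC markers summed to 1100 to 1462 TPM in WT and 878 to 978 in KO, above every precursor library. Markers of other cells were also high in these libraries. Mature neutrophil markers stood at 456 and 2586 TPM in the WT libraries and at 373 and 397 in KO. The MEP and erythroid markers summed to 4457 to 6426 TPM in WT LT-HSC and 4374 to 4827 in KO LT-HSC. For eosinophil markers the sums were 52.3 to 264 and 268 to 3788 TPM, and for B and plasma cell markers 85.5 to 745 and 163 to 935. The part of these cells in the C/EBP and granule gene values was not tested.

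Partner genes of the basic leucine zipper class moved in both directions. In CMP 3 fell and 2 rose of the 25 tested (12.8% and 10.6% of all genes), in GMP 6 fell and 8 rose of 24 (16.3% and 17.5% of all genes), and in MEP 4 fell and 4 rose of 23 (15.4% and 14% of all genes). The median log2 fold change of the list was 0.05 for CMP, 0.02 for GMP and 0.0020 for MEP. *Fos*, an AP-1 subunit, had the largest change among those named in GMP (log2 fold change 2.25, SE 0.20, adjusted p = 6.26e-05). *Bach2*, a repressor, rose in CMP (0.78) and MEP (2.33), and *Nfil3*, a PAR-related repressor, fell in CMP (-1.19). *Tef*, a PAR-type factor, fell in GMP (-0.66) and MEP (-0.93).

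Of 16 transcription factors that act beside C/EBPs in myeloid cells, 6 fell and 1 rose in KO CMP (median -0.15), where 12.8% and 10.6% of all genes did, and 9 fell and 4 rose in KO GMP (median -0.63), where 16.3% and 17.5% did. In KO MEP 3 fell and 2 rose of the 15 tested, near the 29.4% of all genes called there. *Irf8*, which favors monocytes over granulocytes, fell in both, by 1.45 and 1.37 on the log2 scale. *Runx1*, a factor of hematopoietic stem cells and myeloid commitment, fell by 0.61 and 0.64. *Gfi1*, a repressor needed for neutrophils, was lower in KO CMP (-0.99, adjusted p = 0.000739) and higher in KO GMP (0.92, adjusted p = 0.000474), as the granule genes were. *Spi1* (PU.1) rose in GMP (0.60, adjusted p = 0.000211) and was at -0.12 in CMP (adjusted p = 0.521). *Gata2*, a stem and mast cell factor, fell in GMP (-1.70) and MEP (-1.84).

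Genes of the integrated stress and unfolded protein responses, the setting in which CHOP is best known, gave no single direction. Of the 31 tested in CMP 9 fell and 5 rose, of 32 in GMP 3 fell and 10 rose, and of 32 in MEP 6 fell and 8 rose, with medians of -0.12, 0.03 and -0.01. Of all tested genes 23.4%, 33.9% and 29.4% were called in these populations. *Atf4*, the factor upstream of *Ddit3*, was at 0.08 in CMP (adjusted p = 0.478), 0.25 in GMP (adjusted p = 0.0357) and 0.09 in MEP (adjusted p = 0.368). *Chac1*, a target of ATF4, rose from 0.654 ± 0.187 to 2.67 ± 0.669 TPM in GMP, and *Ddit4* from 3.25 ± 0.414 to 7.52 ± 0.829. *Phgdh*, an enzyme of serine synthesis, fell in all 3 precursor populations, most in MEP (-0.79), and *Psat1*, of the same pathway, fell in CMP (-0.49) and GMP (-0.55).

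Across the 18 precursor libraries the genes most like each member in log2(TPM + 1) were sought among 10281 genes with a mean of at least 5 TPM, as a description in which the 3 populations supply most of the spread. *Cebpa* was closest to *Wls* (Pearson r = 0.996), *Cebpe* to *Atp6ap2* (0.994), *Cebpd* to *Pxk* (0.993), *Cebpb* to *Trem3* (0.984), *Ddit3* to *Prnp* (0.990) and *Cebpg* to *4933431K14Rik* (0.966). Among the members, *Cebpb* and *Cebpe* were alike (r = 0.964), as were *Cebpd* and *Cebpe* (0.959), while *Ddit3* ran opposite to *Cebpa* (-0.927). *Cebpa* and its neighbour *Cebpg* had r = 0.05 over the same libraries.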

How the data were processed

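The authors quantified 100 bp read pairs against mouse transcripts of Ensembl 84 (GRCm38/mm10) by kallisto 0.43.1, from SMART-Seq v4 libraries of LT-HSC and TruSeq libraries of poly-A selected RNA of CMP, GMP and MEP. They deposited estimated counts per transcript, in which fragments shared by transcripts are split, together with TPM values scaled for length and the effective lengths themselves. The authors' own differential expression (DESeq2 1.18.1) was not used. The 115088 transcripts were paired with GENCODE vM21, which holds 114200 (99.2%), both kinds of value were summed per gene, and expected counts were rounded. Totals per library lay between 40804031 and 65930737.

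Separate fits were made for each population in edgeR 4.0.16 (with TMM, filterByExpr, quasi-likelihood test, R 4.3.3), with genotype as the only term, Benjamini-Hochberg adjustment over all tested genes and a threshold of 0.1. Interactions and WT population steps came from 1 joint fit of 18 libraries (CMP, GMP and MEP) that blocks on mouse. That pairing comes from the numbers in the labels, each of which was read as 1 mouse that gave all 3 populations. The paper does not describe these numbers. The replicates were likewise taken as separate mice. Scripts were tested on simulated data with 200 genes changed 2-fold. In CMP, GMP and MEP 86.5%, 87% and 87.5% of these were recovered, and 12.6%, 9.84% and 9.79% of calls were false. In LT-HSC 0.5% were recovered and 83.3% of calls were false, so that fit could rarely detect a 2-fold difference. DESeq2 on simulated CMP data recovered 92.5%, with 29.7% of calls false. Alternatives tried were DESeq2 1.42.0, size factors by median of ratios, dropping the filter, limma 3.58.1 on log2(TPM + 1) and log2(TPM + 0.1), a length offset, 1 joint fit, a block of column pairs, no mouse block, and each library or mouse left out.

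Members and gene lists, the granule lists included, were chosen with earlier results of these data known, although the rule for members uses names alone. Genes named were the members, *Arid1a*, up to 4 per list and population with the largest change among those past the threshold with a mean of at least 1 TPM and WT and KO libraries that did not overlap, and the nearest genes by Pearson r. *Elane*, *Lcn2*, *Atf4*, *Spi1* and *Runx1*, together with *Ltf*, *Padi4*, *Gfi1*, *Psat1* and *Trib2* in GMP, *Phgdh* in CMP and GMP and the markers given by name, fall outside that rule and were chosen after their values were seen. Promoter sequences are those of RefSeq for GRCm38.p6.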

Additional observations from a re-analysis of the deposited data

Results flagged for a closer look

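7 results of the family were picked out because the genotype effect differed between populations by the interaction test. Between GMP and CMP the difference in log2 fold change was 1.52 for *Cebpb*, 1.13 for *Cebpd*, 0.81 for *Cebpe* and -0.52 for *Cebpg*. Between MEP and CMP it was 0.98 for *Cebpb* and 0.77 for *Cebpd*, and between MEP and GMP it was 0.52 for *Cebpg*. The 3 comparisons share libraries, so these values are not independent of each other. Of the 7, the *Cebpd* and *Cebpg* values between GMP and CMP and the *Cebpb* value there passed the threshold in every fit that left out 1 mouse, as did the *Cebpg* value between MEP and GMP.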

How the results depend on the processing

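LT-HSC had 2 mice per group, and *Cebpe* in MEP rested on 4 to 29 estimated counts. The WT level order of populations held for 31 of 36 ordered pairs on TMM-scaled CPM and for 34 with protein-coding transcripts only, and each pair that changed involved LT-HSC.
Without a filter, limma on log2(TPM + 1) called 1 member in CMP and 0 in MEP (2406 genes in all there), and the joint fit of 18 libraries called 3 in GMP and 2 in MEP. Without the filter 2 members differed between MEP and GMP, and with no replicate block 1 differed between MEP and CMP. With single libraries left out the members called ranged from 0 to 1 in MEP (3040 to 5357 genes in all). With single mice left out, each with all its libraries, they ranged from 0 to 2 for MEP less CMP (1464 to 2638 genes). The ranges were 1 to 2 for MEP less GMP and 3 to 4 for GMP less CMP (2577 to 3636 genes). The cause was not tested.
Direction changed for members near 0. *Cebpg* in CMP was 0.0483 (log2(TPM + 1), with or without the filter) and 0.0499 (log2(TPM + 0.1)), *Cebpb* in LT-HSC was -0.15 (with or without the filter) and -0.16 on those scales, and *Cebpg* in WT GMP against MEP was -0.0144 with the length offset. With single libraries left out the ranges were -0.0374 to 0.16 (*Cebpd*, CMP), -0.16 to 0.0395 (*Ddit3*, GMP) and -0.0495 to 0.0487 (*Cebpg*, MEP). In LT-HSC they were -0.32 to 0.47 (*Cebpb*), -0.60 to 1.72 (*Cebpe*) and -0.21 to 0.0555 (*Ddit3*). With single mice left out the ranges for MEP less CMP were -0.26 to 0.32 (*Cebpa*), -0.88 to 0.17 (*Cebpe*) and -0.0187 to 0.0538 (*Cebpg*).
All LT-HSC calls, 18 in the reported fit, were 286 with no filter, 248 with DESeq2, 115 with a replicate block of column pairs, 0 with limma, and 50 to 2516 with a library left out, but 0 members were called in each. The order of WT and KO columns in the study's tables may pair mice. Deviations of such pairs correlated with r = 0.37 to 0.57 in CMP, 0.43 to 0.60 in GMP and 0.06 to 0.54 in MEP. Other combinations of WT and KO mice had -0.45 to 0.18, -0.34 to -0.16 and -0.51 to 0.33. As 1 pair in MEP (0.06) lay below another combination, the order was used only as an alternative. With that replicate block 2 members were called in CMP, 5 in GMP and 1 in MEP, as without it. Calls among all genes rose from 4030 to 5384 in CMP, 5550 to 7152 in GMP and 4638 to 5261 in MEP.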

Other observations

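Receptors for the cytokines that act on these cells were also examined. Of 13, 3 fell and 5 rose in KO CMP, 3 fell and 4 rose in KO GMP, and 2 fell and 3 rose in KO MEP, where 23.4%, 33.9% and 29.4% of all tested genes were called in either direction. *Csf2rb2*, the gene of the β chain specific to IL-3, rose in CMP (log2 fold change 1.54) and GMP (1.26), and *Csf2rb*, that of the common β chain, rose in GMP from 48.3 ± 2.09 to 80.8 ± 4.33 TPM (SD, n = 3). *Csf3r*, the receptor of G-CSF, rose in GMP from 112 ± 10.6 to 176 ± 25.0 TPM. *Il6ra* fell in CMP from 22.3 ± 3.71 to 9.99 ± 1.07 TPM, and *Epor*, the erythropoietin receptor, rose in CMP from 31.1 ± 2.96 to 79.6 ± 13.2 TPM and in MEP from 180 ± 4.98 to 248 ± 9.29.

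Of 23 regulators of C/EBP activity or turnover, 2 fell and 4 rose in KO CMP, 1 fell and 5 rose in KO GMP, and 5 fell and 4 rose in KO MEP. Tested were 22, 21 and 21 of them. The CMP and GMP counts are near the 23.4% and 33.9% of all genes called there, and in MEP 29.4% of all genes were called. *Id1*, an inhibitor of helix-loop-helix factors, rose in CMP (log2 fold change 1.77) and GMP (2.60), and *Id2* rose in GMP (2.10). *Trib2*, which leads C/EBPα to degradation, rose in CMP (0.73, SE 0.06, adjusted p = 0.000166) and GMP (1.02, SE 0.23, adjusted p = 0.0104). *Eif2ak2* (PKR) rose in all 3 precursor populations, by 0.52, 0.48 and 0.52 on the log2 scale.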
